A study of Mus musculus with 12 samples.

Results

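Trp63, Foxa1, Foxa2, Sox9, Gata3, Grhl2, Elf3, Klf5 and Tfap2c are 9 transcription factors of epithelial lineages, and they were taken by name from the 20308 gene symbols of the expected-count table. All 9 were in the table and all 9 passed the filter on low counts. They were measured by RNA sequencing in the epithelial layer of the urogenital sinus, from which bladder neck, urethra and prostate form, taken at embryonic day 15.5 from mice of strain C57BL/6J. The Control group (4 libraries) came from wildtype embryos. In the Dnmt1cKO group (8 libraries) a Shh Cre driver had removed Dnmt1, so the deletion is limited to cells that express Shh and to their descendants. Whether the wildtype embryos carried the driver is not stated. Per the protocol, 1 lysate pooled the embryos of a harvest, and the labels do not say which libraries share a lysate. The p-values therefore measure the spread between these libraries, which may be technical.

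Dnmt1 encodes the methyltransferase that copies DNA methylation to the new strand after replication. The 9 factors decide or maintain epithelial identity. p63, the product of Trp63, is required for basal cells of stratified and glandular epithelium, and the forkhead factors Foxa1 and Foxa2 open chromatin for other factors, among them the androgen receptor in the prostate. Sox9 marks growing prostatic buds, Gata3 and Klf5 act in urothelium and prostate, and Grhl2, Elf3 and Tfap2c support epithelial junctions, terminal differentiation and early ectoderm.

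Levels are given as CPM, the count of a gene scaled to a common library total after TMM adjustment. Library totals ran from 543591 to 7577706 expected counts in Control and from 4007533 to 11970907 in Dnmt1cKO. The library labelled Control 4 was the shallowest, and 6740 genes had a count in it. Control 3 held 1613514 expected counts and 9085 genes, against 10197 to 13829 genes in the other 10 libraries. Dnmt1 itself stood at 164, 114 and 237 CPM in Controls 1 to 3 and at 22.8 to 97.0 CPM in Dnmt1cKO. The library labelled Control 4 had only 1 Dnmt1 count (2.84 CPM), which is lower than in any Dnmt1cKO library and goes against its label. For Dnmt1 the log2 fold change was -1.29, which was not called (adjusted p = 0.284, Benjamini-Hochberg, in edgeR's quasi-likelihood test), so each direction below that rests on this library is given with and without it. The epithelial markers Epcam, an adhesion protein, and Cdh1, which encodes E-cadherin, were present in all 12 libraries. Epcam ran from 515 to 949 CPM and Cdh1 from 863 to 12785 CPM, with the top Cdh1 value in the library labelled Control 4. Other epithelial genes were not present in every library. Of the 18 adhesion and splicing genes taken up below with Grhl2, 3 were at 0 in Control 3. In the library labelled Control 4, 2 were at 0, and in the other 10 libraries 0 to 2. The 24 basal genes taken up below with Trp63 summed to 1501 CPM in Control 3, against 5632 to 17426 CPM in the other 11 libraries. The 19 stromal markers summed to 5843, 6552, 12727 and 1422 CPM in Controls 1 to 3 and the library labelled Control 4, and to 467 to 7603 CPM in Dnmt1cKO. None of the 19 was at 0 in Control 3, and Twist1, Twist2 and Mfap4 were at 0 in the library labelled Control 4. Control 3 thus had the highest stromal sum of all libraries, and it also had the highest immune sum over 8 markers (416.9 CPM, against 16.6 to 76.2 CPM in the other 11 libraries). Its erythroid sum was the highest too (5799 CPM, against 10.5 to 1652 CPM in the other 11). So were its neural and glial sum (982 CPM, against 35.3 to 790 CPM) and its Wolffian and Müllerian duct sum (537.5 CPM, against 31.0 to 264 CPM). Its endothelial sum (239 CPM) was below that of the library labelled Control 4 (310 CPM), and its hindgut sum was 0. Markers of other cell types formed 7 lists: stromal, endothelial, immune, erythroid, neural and glial, Wolffian and Müllerian duct, and hindgut. With all libraries 18, 6, 6, 5, 7, 7 and 1 of these markers were tested, in that order. Of them edgeR called 0, beside 2.59% of all genes. Before adjustment (p under 0.05) 1 was higher and 12 were lower, beside 8.19% and 9.54% of all genes. By DESeq2, 6 were called lower and 0 higher, beside 8.47% and 4.01% of all genes, and by limma-voom none. With Control 3 and the library labelled Control 4 left out, edgeR again called 0, beside 0.336% of all genes. Before adjustment 2 were then higher and 2 lower, beside 6.96% and 2.22% of all genes. The stromal list had a median log2 fold change of -1.38 with all libraries and -1.18 without Control 3 and the library labelled Control 4. In bulk tissue, fewer cells of a type and less RNA per cell cannot be told apart.

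With all 12 libraries, Gata3 fell and the other 8 factors did not pass the test. That is 1 of 9 factors lower and 0 higher in edgeR (adjusted p under 0.05), against 1.55% of the 12761 genes tested that were lower, 1.03% that were higher and 2.59% called in either direction. At an unadjusted p under 0.05 edgeR had 2 of the 9 lower (Gata3 and Klf5) and 0 higher, beside 9.54% and 8.19% of all genes. None of the 9 had every Dnmt1cKO library above every Control library, which 2.59% of all genes had. DESeq2 called 2 lower and 0 higher, where it called 8.47% of all genes lower and 4.01% higher. By limma-voom none of the 9 was called, beside 0.243% of all genes lower and 0.0627% higher. Without Control 3 and the library labelled Control 4, 0 of the 9 were called in edgeR, with 1 higher (Sox9) and 2 lower (Gata3 and Tfap2c) at an unadjusted p under 0.05, beside 6.96% and 2.22% of all genes. In that fit 0.322% of 13990 genes were called higher and 0.0143% lower. The median log2 fold change of the 9 factors was -0.61 with all libraries, beside 0.22 over all genes tested, and -0.18 without those libraries, beside 0.16.

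**Figure D1:**
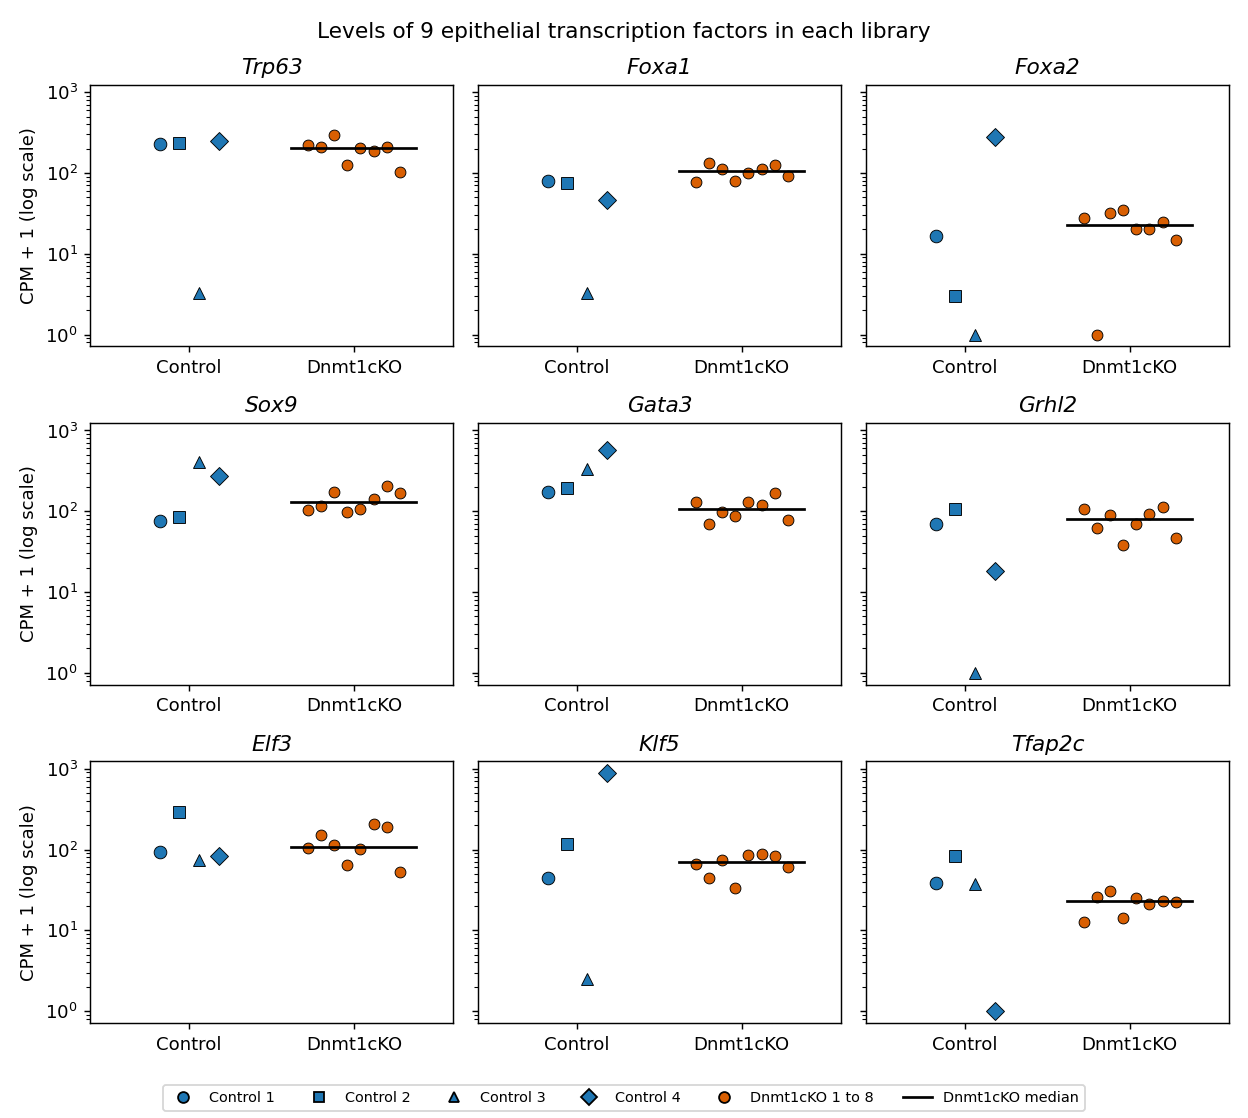
Level of each factor (CPM + 1, logarithmic axis) in every library; blue symbols are single Control libraries, orange points the 8 Dnmt1cKO libraries and the bar their median. Control 3 lies at or near the bottom for Trp63, Foxa1, Foxa2, Grhl2 and Klf5, and all 8 Dnmt1cKO libraries lie below all 4 Control libraries for Gata3.

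Trp63 (chromosome 16, 25683763 to 25892102, plus strand, GRCm38), the basal cell factor, was at a like level in most libraries of both groups. It stood at 229.8, 234, 2.26 and 250.2 CPM in Controls 1, 2 and 3 and the library labelled Control 4. In Dnmt1cKO its lowest, median and highest levels were 103, 204 and 293 CPM. Control 3, with 3 counts, stood apart from all other libraries, and the groups overlapped. Trp63 averaged 179 ± 118 CPM in Control (SD, n = 4) and 193 ± 58.3 CPM in Dnmt1cKO (SD, n = 8), a log2 fold change of 0.11 ± 0.58 (SE) that was not called (edgeR, adjusted p = 0.948). Without Control 3 and the library labelled Control 4 it was -0.20 ± 0.32 (adjusted p = 0.877). The table gives 1 value per gene, so the forms of p63 with and without the transactivating N-terminus were not separated.

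Of 24 basal genes that p63 is known to bind or activate, all were tested. With all libraries edgeR called 1 higher and 0 lower, beside 1.03% and 1.55% of all genes. Before adjustment (p under 0.05) 7 were higher and 1 lower, beside 8.19% and 9.54% of all genes. By DESeq2, 2 of them were called higher and 1 lower, beside 4.01% and 8.47% of all genes, and by limma-voom none. The called gene was Krt17, a keratin of basal and stressed epithelium, at 51.4 ± 47.5 CPM in Control (SD, n = 4) and 253 ± 108 CPM in Dnmt1cKO (SD, n = 8), with a log2 fold change of 2.26 ± 0.63 (SE, adjusted p = 0.045). Dnmt1cKO 2 was the exception at 29.6 CPM, inside the Control range of 6.03 to 109.6 CPM. The median over the 24 genes was 0.88, beside 0.22 over all genes. Without Control 3 and the library labelled Control 4 the median was 0.27, beside 0.16. In edgeR 0 of the 24 were then called, beside 0.336% of all genes. Before adjustment (p under 0.05) 3 were then higher and 1 lower, beside 6.96% and 2.22% of all genes. Krt17 had a log2 fold change of 1.57 in that fit (adjusted p = 0.461). Krt5, the defining keratin of basal cells, stood at 1046, 1998, 293 and 506 CPM in Controls 1 to 3 and the library labelled Control 4 and at 298 to 1551 CPM in Dnmt1cKO.

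Foxa1 (chromosome 12, 57540628 to 57546916, minus strand), a pioneer factor and partner of the androgen receptor, had the same sign of difference under every setting tried, upward in Dnmt1cKO, and never passed the test. It stood at 78.1, 73.8, 2.26 and 45.5 CPM in Controls 1, 2 and 3 and the library labelled Control 4, and the Dnmt1cKO libraries ran from 76.1 over a median of 104 to 130.2 CPM. Control 3 was far below all other libraries, and the groups overlapped in 2 Dnmt1cKO libraries. Foxa1 had a log2 fold change of 1.02 ± 0.64 (SE, edgeR, adjusted p = 0.433) with all libraries and 0.49 ± 0.31 (adjusted p = 0.607) without Control 3 and the library labelled Control 4. On the scale of those 10 libraries all 8 Dnmt1cKO libraries (82.3 to 135 CPM) lay above Control 1 (80.9 CPM) and Control 2 (74.9 CPM). Sox9 did the same, so 2 of 9 factors lay wholly above, where 4.77% of all genes tested did.

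Foxa2 (chromosome 2, 148042877 to 148046969, minus strand), the forkhead factor of endodermal and neuroendocrine cells, turned direction with a single library. It stood at 15.5 and 2.02 CPM in Controls 1 and 2, at 0 counts in Control 3, which allows up to 2.26 CPM, and at 276 CPM in the library labelled Control 4. In Dnmt1cKO its median was 21.6 CPM and its highest level 34.3 CPM, and Dnmt1cKO 2 held 0 counts, which allows up to 0.673 CPM. The library labelled Control 4 was thus above all others by far, and the other 3 Control libraries lay at or below 15.5 CPM. Its log2 fold change was -1.76 ± 1.10 (SE, edgeR, adjusted p = 0.435) with all libraries, 1.85 (adjusted p = 0.529) without the library labelled Control 4 and 1.30 ± 1.22 (adjusted p = 0.738) without it and Control 3.

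Sox9 (chromosome 11, 112782224 to 112787760, plus strand), a factor of budding epithelium and of stem and progenitor cells, was highest in Control 3 and in the library labelled Control 4. Its levels were 75.2, 83.3, 410.1 and 276 CPM in Controls 1, 2 and 3 and the library labelled Control 4. Dnmt1cKO ran from 97.3 over a median of 128 to 206 CPM. All 8 Dnmt1cKO libraries lay between the lower pair of Control libraries and the higher pair. For Sox9 the log2 fold change was -0.61 ± 0.48 (SE, edgeR, adjusted p = 0.548) with all libraries and 0.87 ± 0.34 without Control 3 and the library labelled Control 4, which is 1.82-fold higher and did not pass (adjusted p = 0.426). Control 3, where Sox9 was highest, also had the highest sums of stromal, immune, erythroid, neural and glial, and duct markers. The part of these cells in the level of Sox9 was not tested. With the stromal level in the fit, the log2 fold change of Sox9 was -0.78 (edgeR, adjusted p = 0.476).

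Gata3 (chromosome 2, 9857078 to 9890034, minus strand), a zinc finger factor of urothelium and of prostatic and mammary luminal cells, was the factor that fell. Its levels were 171, 196, 333 and 580.1 CPM in Controls 1, 2 and 3 and the library labelled Control 4. In Dnmt1cKO it ran from 67.8 over a median of 107 to 168 CPM. All 8 Dnmt1cKO libraries lay below all 4 Control libraries, the narrowest gap being that between Dnmt1cKO 7 (168 CPM) and Control 1 (171 CPM), and 0.486% of all genes tested lay wholly below. The means were 319.9 ± 188 CPM (SD, n = 4) and 109 ± 32.9 CPM (SD, n = 8), with a log2 fold change of -1.55 ± 0.44 (SE), a 2.93-fold fall (edgeR, adjusted p = 0.0459).

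The call on Gata3 depended on the libraries kept, and its direction did not. Without Control 3 and the library labelled Control 4 the log2 fold change was -0.68 ± 0.32 (1.61-fold lower, adjusted p = 0.534), and on the scale of those 10 libraries Dnmt1cKO 7 (178.4 CPM) lay between Control 1 (177 CPM) and Control 2 (198 CPM). Without the library labelled Control 4 alone it was -1.02 (adjusted p = 0.163), and without Control 3 alone -1.52 (adjusted p = 0.0561). Leaving out any of Dnmt1cKO 1 to 8 also took the call away, with adjusted p from 0.0602 to 0.0983. Of 21 alternative settings, Gata3 was lower in 21 and passed in 5. The stromal sum was below that of Controls 1 to 3 in 7 of 8 Dnmt1cKO libraries. In the library labelled Control 4, where Gata3 was highest, that sum was 1422 CPM, inside the Dnmt1cKO range of 467 to 7603 CPM. The 19 luminal and urothelial genes listed summed to 16040 CPM there, against 2818 to 5972 CPM in all other libraries. The 18 adhesion and splicing genes taken up with Grhl2 summed to 20712 CPM there, against 2585 to 5276 CPM. The basal sum was 13848 CPM, inside the range of the other libraries (1501 to 17426 CPM). A fit that includes the stromal level gave Gata3 a log2 fold change of -1.79 (edgeR, adjusted p = 0.0145). The part of stroma, or of luminal and urothelial cells, in the level of Gata3 was not tested.

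The sequence before the RefSeq start site is shown for Gata3 and Foxa1 because their differences kept opposite signs under all settings and because Dnmt1 acts on CG dinucleotides, which are in capitals. Methylation of these bases was not analysed here. Both stretches are from RefSeq on GRCm38.p6, minus strand, and leave out annotated exons of the gene itself. They lie inside the GENCODE spans given above, which reach further upstream, so they are not sequence upstream of the whole gene. The first covers chr2:9878601-9878850 (250 bases, 19 CG) and the other chr12:57546122-57546361 (240 bases, 21 CG).
Gata3: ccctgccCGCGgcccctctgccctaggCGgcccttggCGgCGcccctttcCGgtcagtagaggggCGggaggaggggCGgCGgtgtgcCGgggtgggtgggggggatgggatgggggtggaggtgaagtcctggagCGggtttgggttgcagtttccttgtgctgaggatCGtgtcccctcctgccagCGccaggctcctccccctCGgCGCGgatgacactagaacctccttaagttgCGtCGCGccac
Foxa1: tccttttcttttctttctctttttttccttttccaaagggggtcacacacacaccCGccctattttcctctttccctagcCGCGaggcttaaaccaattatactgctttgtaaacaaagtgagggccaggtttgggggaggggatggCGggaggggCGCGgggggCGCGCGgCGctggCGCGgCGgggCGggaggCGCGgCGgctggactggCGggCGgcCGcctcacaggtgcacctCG

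In the window of 300 bases around the start (250 before, 50 after), Gata3 had 22 CG and Foxa1 26, and 23.1% and 16.9% of the 32851 RefSeq windows held as many or more. The median window held 7. Elf3 had 12 CG (39.6% of windows), and the start sites listed for Foxa2 had 13, 23 and 12. These are the 4 of 9 factors matched in that table. The Gata3 stretch also lies inside the span of Gm13256, an antisense RNA gene on the plus strand that is not a row of the count table. The sources used here do not state whether strand was used in counting, and reads of this RNA and of Gata3 cannot be told apart where they overlap. The same holds for Elf3, which lies inside the antisense gene Gm26642, and for Grhl2, whose start is overlapped by the antisense gene Gm16136. Gata3 further overlaps 4930412O13Rik and 9230102O04Rik, also not rows of the table.

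Klf5 (chromosome 14, 99298691 to 99315036, plus strand), a Krüppel-like factor of proliferating epithelium, had the largest SD among Control libraries (414 CPM, n = 4). It stood at 43.6, 116, 1.51 and 876 CPM in Controls 1, 2 and 3 and the library labelled Control 4. Dnmt1cKO ran from 32.8 over a median of 69.9 to 86.8 CPM. Control 3 (2 counts) was below and the library labelled Control 4 (308 counts) above every other library. That gave Klf5 a log2 fold change of -1.95 ± 0.75 (SE, edgeR, adjusted p = 0.173) with all libraries and -0.18 ± 0.42 (adjusted p = 0.91) without those libraries. It passed in DESeq2 (-3.09, adjusted p = 0.00998) and in edgeR without Control 3 alone (-2.36, adjusted p = 0.0145), and it was 0.37 (adjusted p = 0.85) without the library labelled Control 4 alone.

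Elf3 (chromosome 1, 135253575 to 135258568, minus strand), an Ets factor of differentiating epithelium, stood at 92.9, 292, 73.1 and 82.5 CPM in Controls 1, 2 and 3 and the library labelled Control 4. Dnmt1cKO ran from 51.6 over a median of 107 to 206 CPM. Control 2 was above all other libraries, and the remaining Control libraries lay inside the Dnmt1cKO range. The log2 fold change was -0.16 ± 0.52 (SE, edgeR, adjusted p = 0.912) with all libraries, -0.59 ± 0.46 (adjusted p = 0.673) without Control 3 and the library labelled Control 4, and 0.56 (adjusted p = 0.612) without Control 2.

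Grhl2 (chromosome 15, 37233036 to 37363569, plus strand), a grainyhead factor that keeps E-cadherin and claudin genes active, stood at 69.0 and 107 CPM in Controls 1 and 2. It had 0 counts in Control 3, which allows up to 2.26 CPM, and 17.1 CPM (6 counts) in the library labelled Control 4. Dnmt1cKO ran from 37.0 over a median of 78.4 to 112 CPM, a range that held Controls 1 and 2. Grhl2 had a log2 fold change of 0.64 ± 0.76 (SE, edgeR, adjusted p = 0.715) with all libraries and -0.13 ± 0.41 (adjusted p = 0.943) without Control 3 and the library labelled Control 4. Of 18 adhesion and splicing genes that Grhl2 is known to activate, all were tested. With all libraries edgeR called 0 higher and 1 lower, beside 1.03% and 1.55% of all genes. Before adjustment (p under 0.05) 0 were higher and 4 lower, beside 8.19% and 9.54% of all genes. By DESeq2, 0 were called higher and 4 lower, beside 4.01% and 8.47% of all genes, and by limma-voom none. The gene called in edgeR was Spint2, an inhibitor of membrane serine proteases. Spint2 stood at 151, 210.4, 199.8 and 3509 CPM in Controls 1 to 3 and the library labelled Control 4. In Dnmt1cKO it ran from 141 to 219 CPM. Its log2 fold change was -2.49 (adjusted p = 0.0365), and 0.067 (adjusted p = 0.956) without Control 3 and the library labelled Control 4. Without those libraries 2 of the 18 were higher and 0 lower before adjustment, beside 6.96% and 2.22% of all genes. The median over the 18 genes was 0.021, beside 0.22 over all genes, and 0.16 in both sets without those libraries.

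Tfap2c (chromosome 2, 172549593 to 172558622, plus strand), an AP-2 factor of ectoderm and luminal epithelium, stood at 37.4, 80.9 and 36.2 CPM in Controls 1 to 3. The library labelled Control 4 held 0 counts, which allows up to 8.53 CPM. Dnmt1cKO ran from 11.7 over a median of 21.8 to 29.8 CPM. Every Dnmt1cKO library was thus below Controls 1, 2 and 3 and above the limit set for the library labelled Control 4. The log2 fold change was -0.91 ± 0.81 (SE, edgeR, adjusted p = 0.604) with all libraries, -1.23 (adjusted p = 0.346) without the library labelled Control 4, and -1.43 ± 0.51 without it and Control 3, which is 2.69-fold lower and did not pass (adjusted p = 0.362). Tfap2c was the 1 factor of 9 wholly below Control in that set of 10 libraries, where 3.91% of all genes tested lay wholly below.

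**Figure D2:**
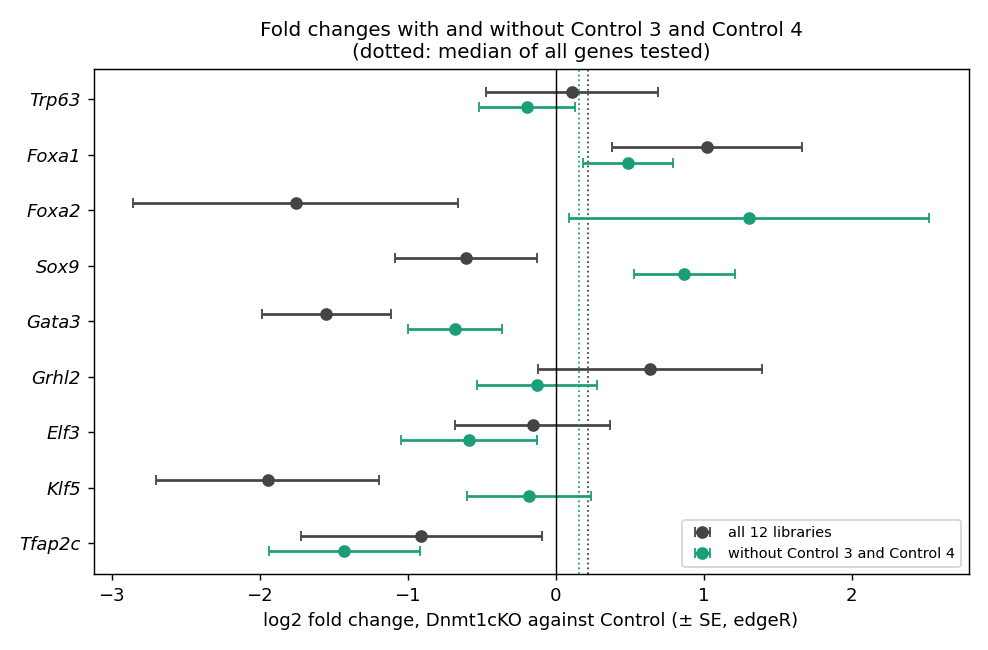
Log2 fold change of each factor (Dnmt1cKO against Control, ± SE) in edgeR with all 12 libraries (grey) and without Control 3 and the library labelled Control 4 (green); dotted lines mark the median of all genes tested. Trp63, Foxa2, Sox9 and Grhl2 lie on opposite sides of 0 in the fits, and Foxa1, Gata3, Elf3, Klf5 and Tfap2c on the same side.

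Sample descriptions carry a code of the letter b and a number that both groups share for 4, 5, 6 and 7, and whose meaning the labels do not give; Dnmt1cKO 6, 7 and 8 all carry code 7. Gata3 was lower in Dnmt1cKO within each code, by -0.81, -1.16, -1.37 and -2.31 in log2(CPM + 2) for codes 4 to 7. Over all genes tested, 51.2%, 42.4%, 33.9% and 21.2% were lower within the same codes. Foxa1 was higher within each code, by 0.48, 0.075, 4.55 and 1.2, where 48.5%, 56.0%, 64.7% and 78.4% of all genes were higher. The other 7 factors had both signs among the codes. Tfap2c was lower within codes 4, 5 and 6 (-0.31, -2.46 and -0.55) and higher within code 7 (3.53), whose only Control is the library labelled Control 4. Trp63 differed by 0.35, -0.88, 5.58 and -0.65, and Sox9 by 1.18, 0.22, -1.95 and -0.71. Of the 9 factors, 7, 3, 6 and 4 were higher within codes 4, 5, 6 and 7.

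**Figure D3:**
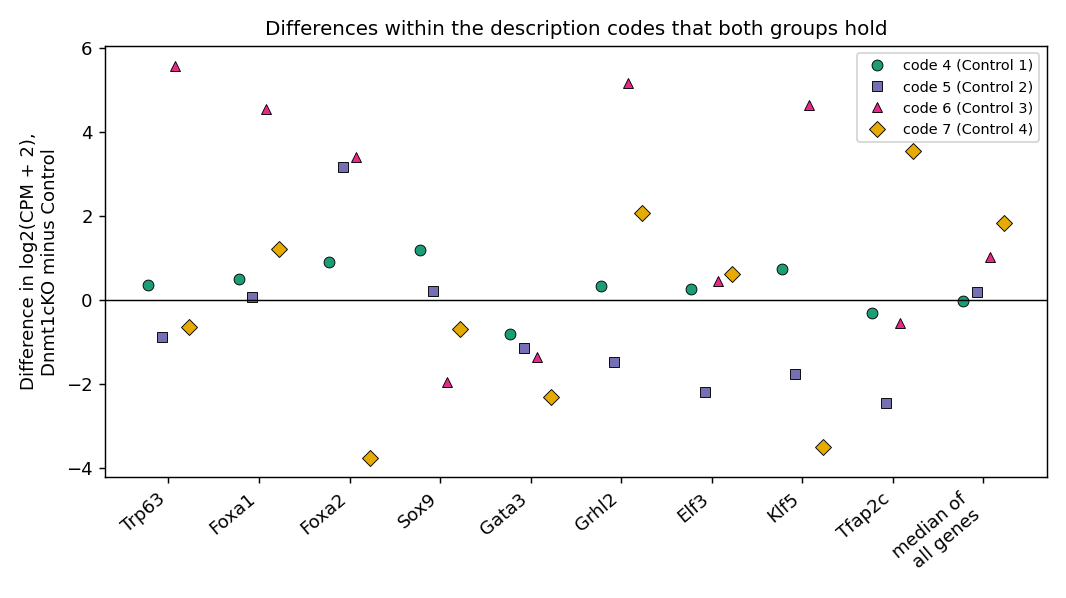
Difference in log2(CPM + 2), Dnmt1cKO minus Control, within each code held by both groups; each code has 1 Control library, and codes 4, 5 and 6 have 1 Dnmt1cKO library and code 7 has 3. The 4 points of Gata3 lie below 0 and those of Foxa1 above 0.

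Per length of transcript, Elf3 was the most abundant of the factors in Dnmt1cKO, at 58.2 ± 26.6 CPM per kb (SD, n = 8). Trp63 (36.0 ± 10.9), Gata3 (33.8 ± 10.2), Sox9 (33.4 ± 9.69) and Foxa1 (32.0 ± 6.28 CPM per kb) followed close together. Klf5 stood at 19.8 ± 5.88, Grhl2 at 15.4 ± 5.58, Foxa2 at 9.86 ± 5.07 and Tfap2c at 7.0 ± 2.01 CPM per kb. Neighbours in this order overlapped in range in every case. Within a library, Elf3 exceeded Trp63 in 7 of 8 libraries, Foxa1 exceeded Klf5 in 8 and Klf5 exceeded Grhl2 in 7, while Trp63 exceeded Gata3 in 3, Gata3 exceeded Sox9 in 5 and Sox9 exceeded Foxa1 in 4. In Control 1 Gata3 (53.2) and in Control 2 Elf3 (139.5 CPM per kb) ranked first. In Control 3 Gata3 (103.6) and Sox9 (99.2 CPM per kb) led, with Trp63 at 0.421, and in the library labelled Control 4 Klf5 (261) and Gata3 (180.4 CPM per kb) led. Length is that of the longest protein-coding transcript of the gene in GENCODE M21, and a library that uses a shorter form would have a higher level per length.

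**Figure D4:**
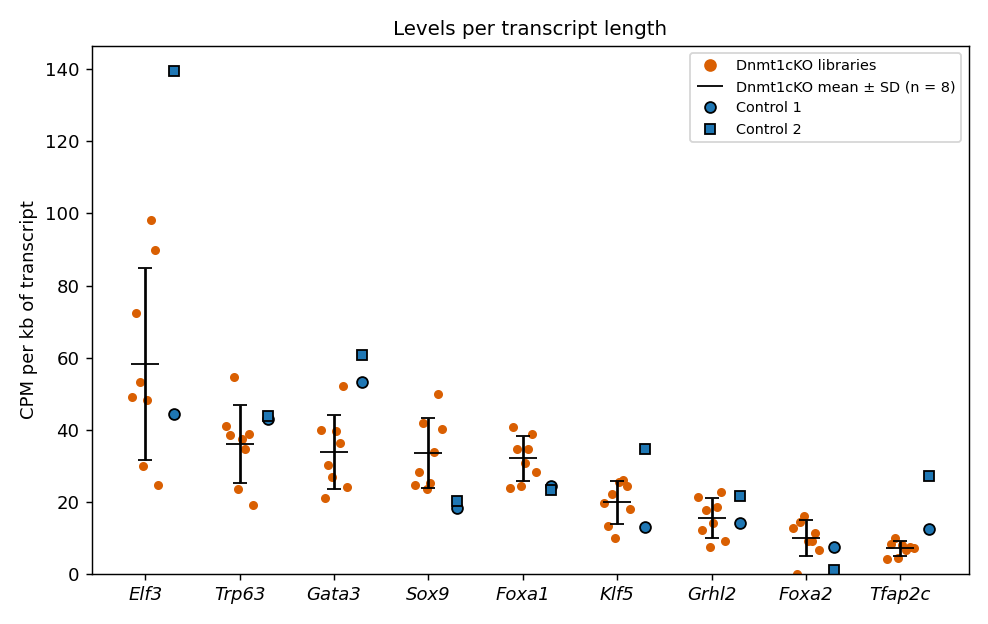
Level per kb of the longest protein-coding transcript (linear axis from 0) in the 8 Dnmt1cKO libraries (orange, with mean ± SD) and in Controls 1 and 2 (blue); Control 3 and the library labelled Control 4 are left out. Elf3 is highest and Tfap2c lowest in the Dnmt1cKO mean, and Tfap2c lies higher in both Control libraries than in any Dnmt1cKO library.

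Among the Dnmt1cKO libraries alone, Foxa1 varied least (coefficient of variation 19.6%), Tfap2c, Sox9, Klf5, Trp63 and Gata3 had 28.7% to 30.3%, Grhl2 36.3%, Elf3 45.6% and Foxa2 51.4%. Over these 8 libraries 31 of the 36 pairs of factors had a positive Pearson correlation of log2(CPM + 2), with a median of 0.38. The pairs with the highest values were Foxa1 with Tfap2c (0.79) and Trp63 with Grhl2 (0.77), and the lowest was Foxa1 with Foxa2 (-0.55), in which Dnmt1cKO 2 has no Foxa2 count and the highest Foxa1 level. These values are descriptions, and the points share library depth and scaling. Over 10 libraries (all but Control 3 and the library labelled Control 4) and 7276 other genes whose log2 CPM averaged 4 or more, the genes most like Gata3 in pattern were Irs1 (Pearson 0.94, Spearman 0.98) and Nrde2 (0.92 and 0.90). Those most like Trp63 were Ncor1 (0.96 and 0.93) and Rhot1 (0.96 and 0.92). Those most like Foxa1 were Mlec (0.91 and 0.92) and Slc7a1 (0.91 and 0.96), and those most like Elf3 were Qars (0.97 and 0.94) and Kremen1 (0.95 and 0.94). Sox9 was most like Psmd3 (0.90 and 0.84) and Tdg (0.87 and 0.89), and Grhl2 most like Arf6 (0.90 and 0.79). Klf5 was most like 8430419L09Rik (0.95 and 0.95) and Tmem2 (0.93 and 0.92), and Tfap2c most like Rbbp8 (0.92 and 0.75) and Zmym5 (0.86 and 0.61). For Foxa2 the nearest were Tsc22d4 (0.98 and 0.82) and Itpr1 (0.98 and 0.59).

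Relatives of the 9 factors within their families were not called in edgeR, and some were in DESeq2. Of 25 relatives 17 were tested, and edgeR called 0, beside 2.59% of all genes. Before adjustment (p under 0.05) edgeR had 3 lower and 0 higher, beside 9.54% and 8.19% of all genes. By DESeq2, 0 were called higher and 4 lower, beside 4.01% and 8.47% of all genes, and by limma-voom none. Their median log2 fold change was 0.19, beside 0.22 over all genes. The 3 were Grhl1, Elf5 and Gata2. Grhl1, a paralog of Grhl2, had a log2 fold change of -2.10 ± 0.60 (SE, adjusted p = 0.0528), and -0.85 (adjusted p = 0.587) without Control 3 and the library labelled Control 4. Elf5, an Ets factor of secretory and ectodermal epithelium, stood at 37.9, 112, 0.754 and 349.8 CPM in Controls 1 to 3 and the library labelled Control 4 and at 9.18 to 35.2 CPM in Dnmt1cKO, a log2 fold change of -2.56 ± 0.76 (SE, adjusted p = 0.0603). Without Control 3 and the library labelled Control 4 that of Elf5 was -1.77 ± 0.53 (adjusted p = 0.232). Gata2, the relative of Gata3 in urogenital mesenchyme and endothelium, had -1.55 ± 0.55 (adjusted p = 0.124), and -0.27 (adjusted p = 0.882) without those libraries. Ehf, an Ets relative of Elf3, and Trp53, the relative of Trp63, had log2 fold changes of 0.26 (adjusted p = 0.808) and 0.37 (adjusted p = 0.797). Grhl3, Klf4 and Tfap2a had 0.61, 1.93 and 1.21, and Gata6, Klf6 and Elf1 had -1.08, -0.96 and -0.56. Grhl3 (-0.23) and Elf1 (0.79) turned direction without Control 3 and the library labelled Control 4; Elf1 stood at 435 CPM in the latter library and at 20.4 to 83.2 CPM in Controls 1 to 3. Klf3, Elf4 and Elf2 had 1.2, 2.34 and 0.19. From Grhl3 to Elf2, none of these relatives was called in edgeR (adjusted p from 0.284 to 0.919). Without Control 3 and the library labelled Control 4, Klf4, Tfap2a, Gata6 and Klf6 had 1.36, 0.37, -1.07 and -0.10. In that fit Klf3, Elf4 and Elf2 had 0.34, 1.54 and 0.12.

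From a list of 34 other epithelial transcription factors, 32 were tested. The list was not limited to factors present in this epithelium. With all libraries edgeR called 1 higher and 1 lower, beside 1.03% and 1.55% of all genes. Before adjustment (p under 0.05) 2 were higher and 6 lower, beside 8.19% and 9.54% of all genes. By DESeq2, 2 were called higher and 5 lower, where 4.01% and 8.47% of all genes were, and by limma-voom none. Of the 32, 3 were higher and 0 lower before adjustment without Control 3 and the library labelled Control 4. In that fit 6.96% and 2.22% of all genes were. Hoxd13, which patterns the hind end of the genital tract, rose (log2 fold change 2.13 ± 0.48, SE, adjusted p = 0.013). It also passed without Control 3 and the library labelled Control 4 (1.81 ± 0.32, adjusted p = 0.0136), and it was the only one of these 32 factors or of the 9 that passed in both fits. Sox4, a factor of progenitor cells, stood at 414, 654, 1854 and 4427 CPM in Controls 1 to 3 and the library labelled Control 4 and at 134 to 476 CPM in Dnmt1cKO. It fell with all libraries (-2.46 ± 0.43, adjusted p = 0.00145) and did not pass without Control 3 and the library labelled Control 4 (-0.60 ± 0.35, adjusted p = 0.599). Sox4 and Gata3 thus had the same order of levels among the Control libraries. The median of the 32 was -0.36 with all libraries and -0.017 without those 2, beside 0.22 and 0.16 over all genes.

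Of 17 luminal and urothelial genes tested, edgeR called 1 higher and 1 lower, beside 1.03% and 1.55% of all genes. Before adjustment (p under 0.05) 3 were higher and 5 lower, beside 8.19% and 9.54% of all genes. By DESeq2, 2 of these were called higher and 3 lower, beside 4.01% and 8.47% of all genes, and by limma-voom none. Krt13, a keratin of stratified urothelium, rose (4.76 ± 1.09, SE, adjusted p = 0.0147), with 1.51 to 5.53 CPM in Control and 0 to 254 CPM in Dnmt1cKO. Psca, an antigen on the surface of urothelial and prostate cells, fell (-2.91 ± 0.72, adjusted p = 0.0232), with 764.9 CPM in the library labelled Control 4 and 4.52 to 84.3 CPM in Controls 1 to 3. In Dnmt1cKO it ran from 11.4 to 43.3 CPM, inside the range of Controls 1 to 3. Of 15 prostatic bud and androgen response genes tested, Wnt10b, an early bud marker, was the 1 that rose (4.61 ± 1.06, adjusted p = 0.0147), with 0 called lower. Over all genes 1.03% were called higher and 1.55% lower. Before adjustment 2 were higher and 0 lower, beside 8.19% and 9.54% of all genes. By DESeq2, 2 of the 15 were called higher and 0 lower, beside 4.01% and 8.47% of all genes, and by limma-voom none. Levels of Wnt10b were 0 to 4.92 CPM in Control and 25.1 to 86.8 CPM in Dnmt1cKO. Without Control 3 and the library labelled Control 4 none of these lists had a called member in edgeR, beside 0.336% of all genes. Before adjustment (p under 0.05) 4 of the luminal and urothelial genes were then higher and 1 lower. Of the bud genes 3 were higher and 0 lower. In that fit 6.96% of all genes were higher and 2.22% lower before adjustment. Krt13 then had a log2 fold change of 4.44 (adjusted p = 0.48), Psca -1.02 (adjusted p = 0.571) and Wnt10b 4.24 (adjusted p = 0.0707).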

How the data were processed

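RNA of 12 libraries (4 Control, 8 Dnmt1cKO) was sequenced. The authors deposited RSEM expected counts, that is estimated counts per gene symbol; RSEM 1.2.3, Bowtie 0.12.9, bcl2fastq 2.17.1.14 and the build mm10 are named, without roles, per the submitters' processing notes. The sources used here do not give the annotation or the strand setting. Counts were rounded, and genes passing filterByExpr (minimum count 10, total 15) were fitted by edgeR 4.0.16 (R 4.3.3, TMM, robust quasi-likelihood F-test, genotype only); p-values were adjusted by Benjamini-Hochberg over all genes tested, and under 0.05 was called. SE is the log2 fold change over the root of F. The fit was tested on simulated data. DESeq2 1.42.0, limma 3.58.1 (voom with quality weights), other scaling, no filter, blocks, a stromal covariate and left-out libraries were the alternatives. Limits for 0 counts use 3 counts; they cover counting error only, since no molecular identifiers are mentioned. No libraries of a group matched within counting noise (lowest chi-square per degree of freedom 28.1). Named genes were all 9 factors, their relatives with at least 10 counts in 6 of 12 libraries, up to 4 called members per list by smallest p, and for each factor the 2 genes with the highest Pearson correlation (1 of these is not reported here); Krt5, Epcam and Cdh1 were added as marker checks. Factors and lists were chosen with earlier results of these data known.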

Additional observations from a re-analysis of the deposited data

Results flagged for a closer look

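In 4 of the 18 groups of levels checked (9 factors in 2 groups), a single library lay far from the rest of its group. How often this happens for other genes was not tested, and the groups checked share the same libraries. All 4 are in the Control group. Trp63 stood at 2.26 CPM in Control 3, and the next Control library was at 229.8 CPM. Foxa2 stood at 276 CPM in the library labelled Control 4, and the next was at 15.5 CPM. Elf3 stood at 292 CPM in Control 2, and the next was at 92.9 CPM. Klf5 stood at 876 CPM in the library labelled Control 4, and the next was at 116 CPM.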

How the results depend on the processing

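The log2 fold changes of the 9 factors and the counts of calls were recomputed under 21 alternatives, the counts of factors wholly above or below Control under 3, and the gene lists with DESeq2, limma-voom and without both libraries only. No factor was called higher under any of them. The factors called lower, 1 in the result as reported, numbered 0 with library totals alone, without a filter, with limma-voom, with either replicate block and without Control 3 and the library labelled Control 4 together, 2 with DESeq2 (Gata3 and Klf5), and 0 to 1 with 1 library left out; without Control 3 the 1 was Klf5. Gata3 and Tfap2c were lower and Foxa1 higher under all 21. Directions turned for Trp63 with RLE factors (-0.44), DESeq2 (-0.45), the stromal covariate (-0.14) and without both libraries (-0.20), and ranged from -0.30 to 0.37 with 1 library left out. They turned for Foxa2 (1.72), Sox9 (0.49) and Klf5 (0.27) with limma-voom, and without both libraries for Foxa2 (1.30), Sox9 (0.87) and Grhl2 (-0.13). That of Elf3 was 0.033 with library totals alone. With 1 library left out Foxa2 ranged from -2.17 to 1.85, Elf3 from -0.36 to 0.56 and Klf5 from -2.36 to 0.37.

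Over all genes tested, 132 were higher and 198 lower. The lower genes numbered 726 with RLE factors, 47 with library totals alone, 1030 with DESeq2, 31 with limma-voom and 2 without both libraries, and the higher genes 487 with DESeq2, 8 with limma-voom and 45 without both libraries. With RLE factors 170 were higher, and with library totals alone 113. With 1 library left out, 60 to 657 were higher and 36 to 494 lower. Without both libraries 2 factors lay wholly above Control, against 0 with all. The cause of these changes was not tested.

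The fit with the code as a replicate block called 135 genes higher and 72 lower, and that with the title number as a replicate block 34 and 31. Same-numbered libraries did not deviate together (correlation of deviations from the group means -0.052 to 0.061 for the code, -0.052 to 0.096 for the title number), and 1 of 4 Controls correlated best with its own code and 0 of 4 with its own title number. Depth limits the library labelled Control 4 most, where 3 counts are 8.53 CPM.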
